A study of Mus musculus with 6 samples.

Results

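Microglia depend on a pair of external signals, and the 10 genes described here carry them: the receptor Csf1r, its ligands Csf1 and Il34, the myeloid transcription factor Spi1, and the TGF-beta ligands, receptors and Smads Tgfb1, Tgfb2, Tgfbr1, Tgfbr2, Smad2 and Smad3. They were chosen by name from the 23366 gene symbols of the cortical RNA table, and all 10 were present, Spi1 under its older symbol Sfpi1. RNA was sequenced from the cortex of 3 control mice, named A1, A2 and A3, and of 3 mice at day 10 after microglia depletion, named A4, A5 and A6, all on a C57BL/6 background. According to the study's methods, the depleted mice were CX3CR1-CreERT2+/- iDTR+/-, the controls were CX3CR1-CreERT2+/- littermates without iDTR, both genotypes received tamoxifen, and diphtheria toxin induced the depletion. Whether the control mice were given the toxin is not stated. The methods describe the groups as matched for age and sex and do not give the ages of these mice. Which individual mice were littermates, and whether they shared a processing day, is not stated, and each library is 1 mouse. Cre was driven by the CX3CR1 promoter, which is active in microglia and in other mononuclear phagocytes, and every mouse of both groups carried this allele. Frontal cortical tissue was taken whole, so that each value sums over microglia, neurons, astrocytes, oligodendrocytes and vessels, and fewer cells of a type and less RNA per cell cannot be told apart.

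CSF1R is a receptor tyrosine kinase of microglia and other macrophages, without whose signal microglia die. Its ligands in the brain have separate sources, since IL-34 is made mainly by neurons of the forebrain and CSF-1 mainly by glia, and PU.1, the product of Spi1, is the transcription factor that switches on Csf1r in myeloid cells. TGF-beta is released from a latent complex, binds the type II receptor TGFBR2, which recruits and activates the type I receptor TGFBR1, and this phosphorylates SMAD2 and SMAD3. In the brain this pathway maintains the resting gene programme of microglia. The comparison asks how the RNA of these genes stood in the whole cortex at day 10 after microglia had been depleted.

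None of the 10 genes differed between the groups past the threshold of an adjusted p-value under 0.1 (limma on log2(FPKM + 1), fitted over 14385 genes), for which the background was 0.0278% of all genes tested. The adjusted p-values ran from 0.488 for Spi1 to 0.969 for Tgfb2. Over all genes 4 passed, fewer than the paper called from raw counts at the same threshold. A gene not called here is therefore not shown to be unchanged. Csf1 and Tgfbr2 were higher in every depleted mouse than in any control mouse, which is 2 of 10 genes, while the groups were likewise apart in 17.6% of all genes tested, 8.21% in the higher and 9.38% in the lower direction. At an unadjusted p-value under 0.05 stood 0 of the 10 genes, against 10.5% of all genes, 4.79% in the higher direction. The median log2 fold change was 0.035 over the 10 genes and -0.0085 over all genes tested.

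The values are FPKM, fragments scaled to transcript length and library size, so that levels of different genes can be compared roughly. Sequence shared between genes, as described for Csf1r below, adds uncertainty to such a comparison. The spacing of low values, in which 1 fragment is the smallest step, gave about 14.6 to 20.5 M (mega) fragments behind the control values and 7.1 to 13.8 M behind the depleted ones, with the lowest in A5. The depleted mice were thus measured less deeply in each case, and the depth behind Spi1, the rarest of the 10 genes, came to between 15 and 57 fragments per mouse for its longest coding transcript. For Csf1r the same estimate was 502 to 1652 fragments. Mouse A4 stood apart by its interferon response genes, whose summed FPKM was 690.7 there, 139.5 and 148.8 in A5 and A6, and at most 74.6 in the control mice. Transcripts of 4 Y-linked genes summed to 5.56 FPKM in A4 and to at most 0.16 in each other mouse, and Xist was at 4.74 FPKM in A3 and at least 30.9 in each other mouse. A4 thus held both Xist and Y-linked transcripts and A3 little of either, so that neither mouse was clearly female or male by these transcripts. The matching for sex described in the methods is therefore in doubt for these mice. Whether a library held RNA of another mouse was not tested, nor was the part of this pattern in the values below.

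In control mice the FPKM values fell into steps. Il34 was the most abundant, at 28.5 ± 2.04 FPKM (SD, n = 3), followed by Csf1r at 19.1 ± 2.36 and Smad3 at 16.7 ± 1.43, whose ranges overlapped. Csf1 stood next at 5.57 ± 0.135 FPKM (SD, n = 3), above Smad2 at 4.97 ± 0.163 and Tgfbr1 at 4.39 ± 0.480, and the last pair overlapped. Tgfbr2 at 3.11 ± 0.258, Tgfb2 at 2.39 ± 0.364, Tgfb1 at 1.47 ± 0.201 and Spi1 at 0.927 ± 0.344 FPKM (SD, n = 3) each lay below the range of the one before. The order of the means was the same in depleted mice. There the ranges of Tgfbr1 and Tgfbr2, of Tgfb2 and Tgfb1, and of Tgfb1 and Spi1 overlapped as well.

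**Figure D1:**
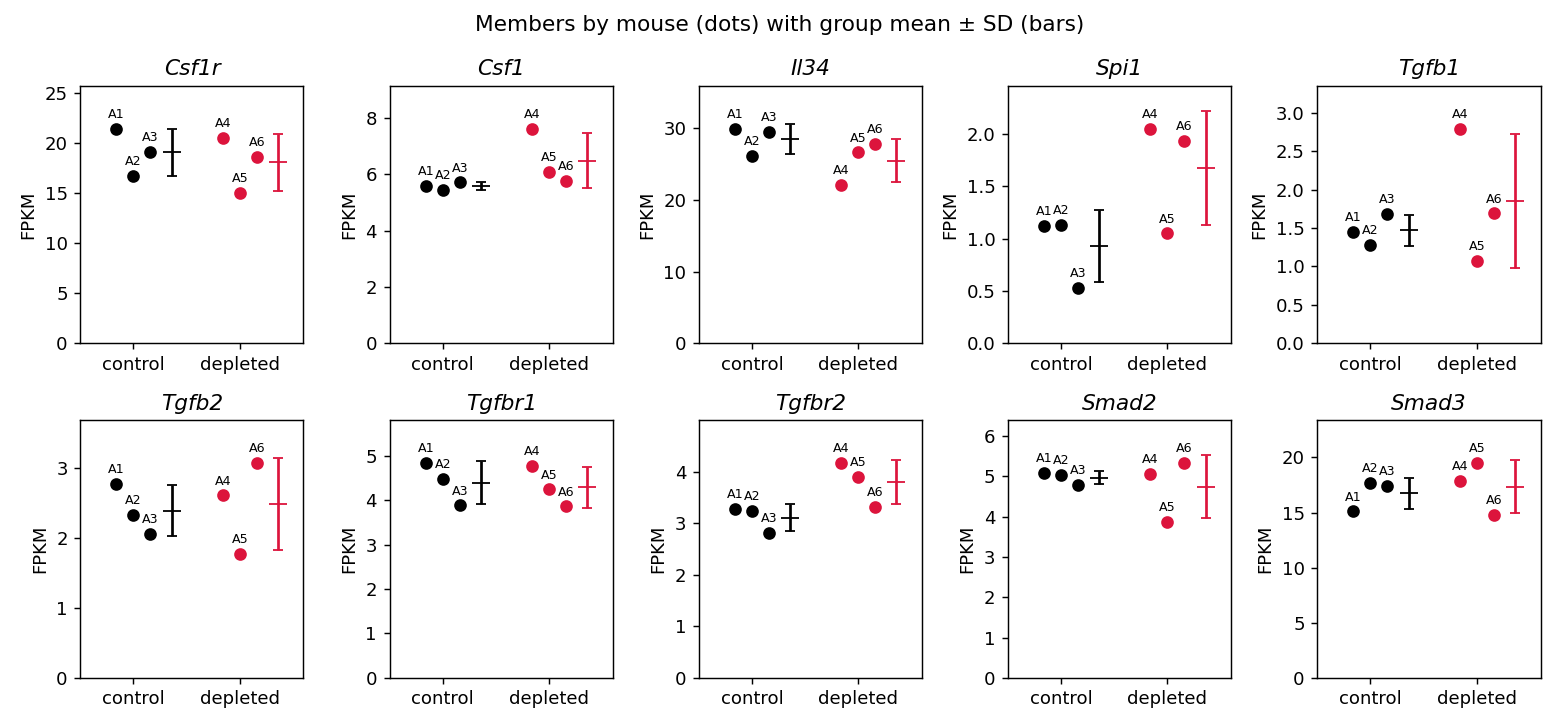
FPKM (y axis, from 0) of each of the 10 genes in the 3 control (black) and 3 depleted (red) mice, with the group mean ± SD beside the dots. The depleted dots lie above every control dot for Csf1 and Tgfbr2, and A4 is the highest of all mice for Csf1, Spi1, Tgfb1 and Tgfbr2 and the lowest for Il34.

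Csf1r, the receptor, was at 21.46, 16.75 and 19.18 FPKM in A1, A2 and A3, against 20.58, 15.05 and 18.64 FPKM in A4, A5 and A6. The groups overlapped almost fully, with A1 and A4 highest and A5 and A2 lowest. The mean of the depleted mice was 5.44% lower, with a log2 fold change of -0.081 (95% interval -0.39 to 0.22, adjusted p = 0.858 in limma), and the exact two-sided permutation test gave p = 0.6, where 3 mice against 3 cannot give less than 0.1. Its sign depended on single mice, at 0.0016 without A1 and 0.039 without A5. Of the 75-base windows of annotated Csf1r transcripts, 13.9% also occur in Hmgxb3 transcripts on either strand, so how reads were divided between these genes is uncertain. Hmgxb3 was at 10.86 to 10.96 FPKM in control mice, against 11.1, 12.1 and 8.59 FPKM in A4, A5 and A6.

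Csf1, a ligand of the receptor that is made by glia and induced in inflammation, was at 5.57, 5.44 and 5.71 FPKM in A1, A2 and A3. In A4, A5 and A6 it was at 7.61, 6.08 and 5.76 FPKM. No depleted mouse reached down to the control range, although A6 exceeded A3 by little. The control mice lay within a narrow band, and A4 stood well above the other depleted mice. The mean was 16.3% higher after depletion, and the log2 fold change was 0.18 (95% interval -0.10 to 0.46, adjusted p = 0.626 in limma; exact two-sided permutation test, p = 0.1). Without A4 the log2 fold change was 0.074, a value more than 1.5 times smaller.

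Il34, the ligand made by neurons, was at 29.91, 26.15 and 29.42 FPKM in A1, A2 and A3, against 22.03, 26.61 and 27.74 FPKM in A4, A5 and A6. A4 was the lowest of the 6 mice, and A5 and A6 lay within the control range. The mean was 10.6% lower after depletion, at a log2 fold change of -0.16 (95% interval -0.40 to 0.080, adjusted p = 0.614 in limma; exact two-sided permutation test, p = 0.3), or -0.064 without A4. The 12 neuronal markers summed to 4125 to 4638 FPKM in control and 3756 to 4235 FPKM in depleted mice, lowest in A4. In limma 0 of the 12 passed the test and 1 was at an unadjusted p-value under 0.05, beside 10.5% of all genes. The part of these markers in the Il34 values was not tested.

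The balance of both ligands was read as the difference of their log2(FPKM + 1) values within a mouse. Il34 exceeded Csf1 by 2.23, 2.08 and 2.18 in A1, A2 and A3 and by 1.42, 1.96 and 2.09 in A4, A5 and A6. The excess was thus smallest in A4, and A6 lay within the control range. The group means were 2.16 ± 0.0805 and 1.82 ± 0.356 (SD, n = 3), a difference of -0.34 (exact two-sided permutation test, p = 0.2) that came to -0.14 without A4. Il34 RNA was more abundant than Csf1 RNA in every mouse.

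Spi1 encodes PU.1, the factor that specifies the myeloid lineage. It was at 1.12, 1.13 and 0.53 FPKM in A1, A2 and A3, against 2.05, 1.05 and 1.93 FPKM in A4, A5 and A6. A4 and A6 were above all control mice, while A5 lay just below A1 and A2, so that the groups overlapped. The mean was 80.9% higher in depleted mice, and the log2 fold change of 0.47 was the largest of the 10 genes (95% interval -0.019 to 0.96, adjusted p = 0.488 in limma; exact two-sided permutation test, p = 0.3). Without A5, the least deeply sequenced mouse with about 15 fragments on Spi1, it was 0.65. Without A3, with about 20 fragments, it was 0.31, which is more than 1.5 times smaller. It also depended on the pseudocount, at 0.80 on the log2(FPKM + 0.1) scale (adjusted p = 0.501 in limma).

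The promoters of Csf1 and Tgfbr2 are shown because these were the genes in which the groups did not overlap. The bases are the 250 before the start site, from RefSeq on GRCm38.p6, while the submitters' notes name mm9 for the alignment. They were searched on both strands for GAGGAA, the core of a PU.1 site, and for CAGACA, part of a box bound by SMAD3 and SMAD4, and matches are in capitals.
Csf1 (chr3:107760470-107760719, minus strand): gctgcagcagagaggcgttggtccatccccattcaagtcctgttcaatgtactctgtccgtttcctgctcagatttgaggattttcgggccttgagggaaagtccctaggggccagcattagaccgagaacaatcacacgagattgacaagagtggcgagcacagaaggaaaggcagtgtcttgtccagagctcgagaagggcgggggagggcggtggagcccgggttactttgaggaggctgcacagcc
Tgfbr2 (chr9:116175364-116175613, minus strand): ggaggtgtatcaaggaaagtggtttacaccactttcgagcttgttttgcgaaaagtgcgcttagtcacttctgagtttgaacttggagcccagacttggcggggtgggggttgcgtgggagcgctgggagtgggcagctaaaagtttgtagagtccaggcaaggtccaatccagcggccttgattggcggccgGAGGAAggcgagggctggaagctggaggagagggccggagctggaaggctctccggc
The Csf1 window held neither string, and the Tgfbr2 window held GAGGAA once, from 57 to 52 bases before the start. Of 32851 promoter windows of the same length, 23.3% hold GAGGAA and 17.1% hold CAGACA. Of the 7 windows searched, which belong to 6 of the 10 genes, 3 held at least one string. These were that of Tgfbr2, that of Tgfb2 and 1 of the 2 of Tgfbr1, the last pair with both strings. No window of Csf1r, Smad2, Il34 or Spi1 was searched. A match is a description of letters and not of binding.

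Tgfb1, the ligand that microglia themselves make, was at 1.45, 1.28 and 1.68 FPKM in A1, A2 and A3, against 2.79, 1.07 and 1.69 FPKM in A4, A5 and A6. A4 was far above the other mice, A5 was the lowest of all, and A6 lay just above the highest control mouse. The log2 fold change was 0.17 (95% interval -0.34 to 0.67, adjusted p = 0.816 in limma; exact two-sided permutation test, p = 0.6), and it was -0.063 without A4.

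Tgfb2, a second ligand, which astrocytes and neurons also produce, was at 2.78, 2.33 and 2.06 FPKM in A1, A2 and A3, against 2.61, 1.77 and 3.07 FPKM in A4, A5 and A6. The depleted mice held both the highest and the lowest value. The log2 fold change was 0.026 (95% interval -0.37 to 0.43, adjusted p = 0.969 in limma; exact two-sided permutation test, p = 1). It was -0.045 without A3, -0.0084 without A4 and -0.095 without A6. Within a mouse Tgfb2 exceeded Tgfb1 by 0.63, 0.55 and 0.19 on the log2(FPKM + 1) scale in A1, A2 and A3, and by -0.070, 0.42 and 0.60 in A4, A5 and A6. A4 was the only mouse with more Tgfb1 than Tgfb2. The group difference was -0.14 (exact two-sided permutation test, p = 0.6) and turned to 0.054 without A4.

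Tgfbr1, the kinase that phosphorylates the Smads, was at 4.83, 4.47 and 3.88 FPKM in A1, A2 and A3, against 4.77, 4.24 and 3.86 FPKM in A4, A5 and A6. The ranges of the groups nearly coincided. The log2 fold change was -0.028 (95% interval -0.32 to 0.26, adjusted p = 0.957 in limma; exact two-sided permutation test, p = 0.7), with its sign turned without A1 or without A6.

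Tgfbr2, the receptor that binds the ligand first, was at 3.28, 3.23 and 2.81 FPKM in A1, A2 and A3, against 4.16, 3.90 and 3.32 FPKM in A4, A5 and A6. All depleted mice were above all control mice, though A6 exceeded A1 by little. The mean was 22.1% higher, with a log2 fold change of 0.22 (95% interval -0.069 to 0.51, adjusted p = 0.571 in limma; exact two-sided permutation test, p = 0.1), and with 1 mouse left out it ran from 0.17 to 0.29. Endothelial cells, which express this receptor strongly, had 9 markers that summed to 50.4 to 57.6 FPKM in control and 59.0 to 64.5 FPKM in depleted mice. Of the 9, 7 were higher on average. In limma 0 of the 9 passed the test and 1 was at an unadjusted p-value under 0.05, beside 10.5% of all genes. Without Ly6c1, the most abundant of the 9, the sums overlapped, at 26.5 to 30.4 and 30.0 to 33.4 FPKM. Relative to the microglia markers described below, the Tgfbr2 groups overlapped, with a difference of -0.055. The part of either marker list in the Tgfbr2 values was not tested.

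Smad2 and Smad3, the transcription factors that the receptors activate, showed small differences. Smad2 was at 5.08, 5.04 and 4.78 FPKM in A1, A2 and A3, against 5.05, 3.86 and 5.32 FPKM in A4, A5 and A6. Only A5 lay apart, below the other mice. The log2 fold change was -0.064 (95% interval -0.36 to 0.23, adjusted p = 0.889 in limma; exact two-sided permutation test, p = 0.9), or 0.052 without A5. Smad3 was at 15.10, 17.72 and 17.39 FPKM in A1, A2 and A3, against 17.83, 19.47 and 14.77 FPKM in A4, A5 and A6. The depleted mice again held both extremes. The log2 fold change was 0.044 (95% interval -0.22 to 0.31, adjusted p = 0.916 in limma; exact two-sided permutation test, p = 0.7). It was -0.024 without A1 and -0.038 without A5. Smad3 exceeded Smad2 by 1.57 ± 0.143 on the log2(FPKM + 1) scale in control and by 1.68 ± 0.379 in depleted mice (SD, n = 3), which overlapped (exact two-sided permutation test, p = 0.8).

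**Figure D2:**
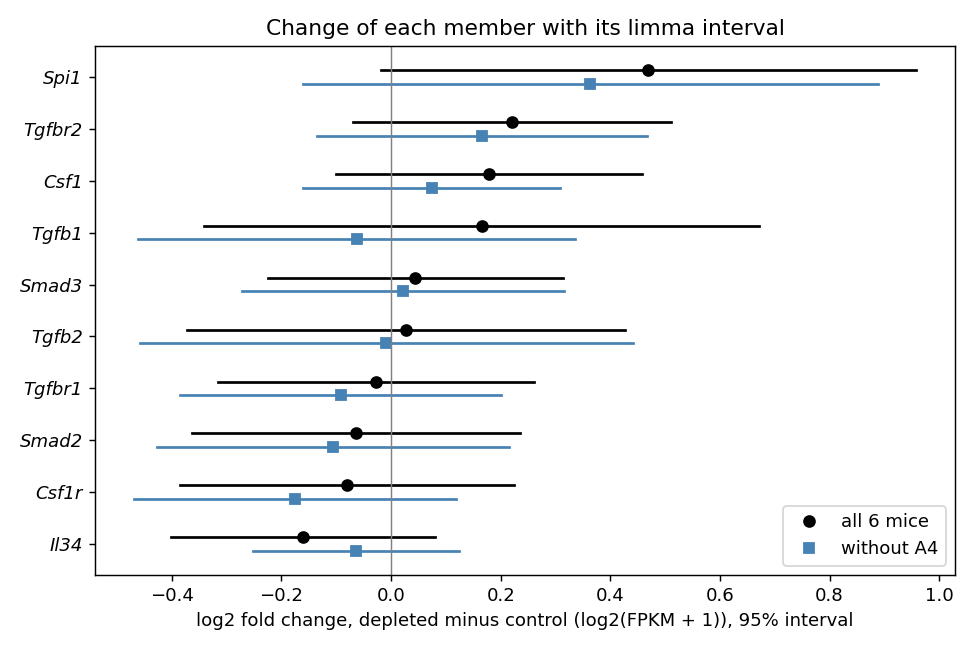
Log2 fold change of each gene (x axis, depleted minus control on the log2(FPKM + 1) scale) with its 95% interval from limma, for all 6 mice (black circles) and without A4 (blue squares). Every interval holds 0. Spi1, at 0.47 with all mice, lies farthest to the right, and Tgfb1 goes from 0.17 to -0.063 without A4.

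RNA of microglia was present in these libraries at day 10. All 21 microglia markers were detected, and their summed FPKM was 355.3, 292.0 and 332.6 in A1, A2 and A3 and 606.6, 373.7 and 475.6 in A4, A5 and A6. The sum of each depleted mouse exceeded that of any control mouse, with p = 0.1 in the exact permutation test. Of the 21 markers 18 were higher on average, with a median log2 fold change of 0.24 beside -0.0085 over all genes, and 0 passed the test in limma, with 12 in either direction at an unadjusted p-value under 0.05 beside 10.5% of all genes. With 1 mouse left out the median ran from 0.15, without A2, to 0.30, and the number higher from 14, without A4, to 19. Without A5, 3 markers passed the test as higher. Aif1, which encodes the marker Iba1, was at 6.49, 6.30 and 5.88 FPKM in control against 14.3, 7.34 and 12.8 FPKM in depleted mice. Cx3cr1, the fractalkine receptor whose promoter drives Cre, was at 4.74, 3.99 and 4.54 FPKM in control against 4.91, 3.94 and 4.72 FPKM in depleted mice. Of the 21 markers, 10 were higher and 2 lower in every depleted mouse, beside 8.21% and 9.38% of all genes. The lower ones were Fcrls and P2ry12. P2ry12 was at 9.57, 10.2 and 8.5 FPKM in control against 7.18, 6.45 and 7.91 FPKM in depleted mice. The microglial genes thus differed among themselves, with Aif1 higher, Fcrls and P2ry12 lower, and Cx3cr1 overlapping between the groups, as Csf1r did.

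Csf1r was therefore also set against the mean of the 21 markers within each mouse, on the log2(FPKM + 1) scale. It lay above that mean by 0.86, 0.76 and 0.83 in A1, A2 and A3 and by 0.46, 0.42 and 0.50 in A4, A5 and A6. The groups were far apart for their spread, at 0.815 ± 0.0471 in control and 0.459 ± 0.0359 in depleted mice (SD, n = 3), a difference of -0.36 (exact permutation test, two-sided, p = 0.1, which is the least that 6 mice allow). With 1 mouse left out the difference ran from -0.38 to -0.34. The marker mean itself was 0.28 higher in depleted mice. Relative to it, 28.8% of the 14364 tested genes outside the markers were likewise lower in every depleted mouse, and the median difference of those genes was -0.28. Against single markers, Csf1r was lower in every depleted mouse for 10 of 21, among them Ctss, Aif1, Tyrobp and the C1q genes. It was higher in every depleted mouse for Fcrls and P2ry12, and overlapping for the remaining ones. On their own, Ctss, Aif1, Tyrobp and the C1q genes were higher and Fcrls and P2ry12 lower in every depleted mouse. With Csf1r itself at a log2 fold change of -0.081, these signs largely restate the changes of the markers. These genes differ in kind, since Ctss, Tyrobp and the C1q genes encode a lysosomal protease, a signalling adaptor and complement subunits that activated microglia also use, while P2ry12 encodes the purine receptor of resting microglia. Relative to Cx3cr1 alone the difference was -0.11, with overlapping groups (exact two-sided permutation test, p = 0.3), and relative to the median marker it was -0.13 (exact two-sided permutation test, p = 0.4), both more than 1.5 times smaller. Without the C1q genes among the markers it was -0.29 (exact two-sided permutation test, p = 0.1). These settings and the single markers were chosen after the data were seen.

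**Figure D3:**
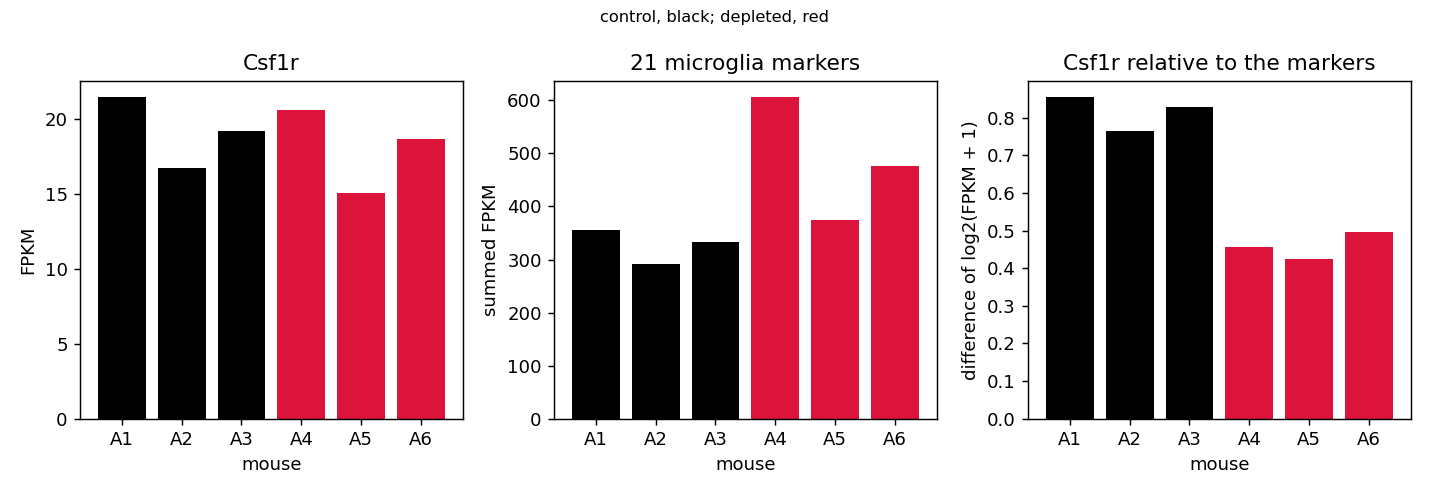
Csf1r in FPKM (left), the summed FPKM of 21 microglia markers (middle) and the difference between log2(FPKM + 1) of Csf1r and the mean of the markers (right), for each mouse, control in black and depleted in red, with every axis from 0. Csf1r overlaps between the groups, the marker sum is higher in each depleted mouse, and the difference is 0.76 to 0.86 in control and 0.42 to 0.50 in depleted mice.

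The other 9 genes were set against the same markers, an addition made after the data were seen. Il34 and Smad2 were lower in every depleted mouse relative to the markers, with differences of -0.44 and -0.34, as was Csf1r, so that 3 of 10 genes stood beside a background of 28.8%, and 0 of 10 were higher without overlap beside 0.787%. Spi1 was the only one with a higher mean, by 0.19, and its groups overlapped (exact two-sided permutation test, p = 0.4). Csf1 and Tgfbr2, whose groups were apart in FPKM, overlapped relative to the markers, with differences of -0.097 and -0.055. Across the 6 mice the markers whose log2 values followed Csf1r most closely were Cx3cr1, with a Pearson r of 0.92, and Itgam, the integrin CD11b, with 0.88. The median over the 21 markers was 0.36, beside 0.021 over all genes, and Siglech was lowest at -0.091. Among all genes tested the 5 most like Csf1r were Gm5069, Zfp212, Snx8, 1110017D15Rik and Mxra8, with r from 0.97 to 0.99 over 6 mice. These are descriptions over few libraries that share depth and scaling.

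Of 26 tested partners and related cytokine genes, 18 were higher on average in depleted mice, beside 6907 of all 14385 genes, with a median log2 fold change of 0.11, and 0 passed the test in either direction (lowest adjusted p = 0.370 in limma, with 6 genes at an unadjusted p-value under 0.05 beside 10.5% of all genes). The list shares Tyrobp and Trem2 with the microglia markers, whose sum was higher in depleted mice. Ptpn6, which encodes the phosphatase SHP-1, was at 1.17, 1.11 and 1.08 FPKM in control against 3.60, 1.52 and 2.58 FPKM after depletion, giving a log2 fold change of 0.71. Tyrobp, which encodes the adaptor DAP12, was at 26.5, 21.1 and 29.0 FPKM in control against 54.1, 30.1 and 37.1 FPKM after depletion, giving a log2 fold change of 0.61. In both genes the groups did not overlap. Of the 26 genes, 7 were higher and 0 lower in every depleted mouse, beside 8.21% and 9.38% of all genes. At the other end stood Kitl, the ligand of the related receptor KIT, at -0.28, and Pik3cd, a catalytic subunit of phosphoinositide 3-kinase, at -0.17, both with overlapping groups. The cytokine genes Csf2 and Csf3 and the receptor gene Csf2rb were below the filter. Without A4 the median of the list was 0.085.

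The 15 tested myeloid transcription factors beside Spi1 had a median log2 fold change of 0.19. Of these, 13 were higher on average, beside 6907 of all 14385 genes. In limma 0 passed the test (lowest adjusted p = 0.556) and 0 were at an unadjusted p-value under 0.05, beside 10.5% of all genes. The groups were apart in 0 of the 15, beside 17.6% of all genes. Irf8, a partner of PU.1, was at 1.00, 1.5 and 1.34 FPKM in control against 2.27, 1.38 and 1.88 FPKM after depletion, giving a log2 fold change of 0.31. Mef2c, which neurons express as well, came next at 0.26, and Batf3 and Maf were lowest at -0.11 and -0.033. Without A4 the median of the list was 0.031. Runx1 and Nfe2 were below the filter.

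In the TGF-beta pathway around the members the list medians were small, from -0.032 to 0.039. Of 16 tested genes for ligands, storage and activation, 7 were higher on average, with a median log2 fold change of -0.032 and 0 past the test (lowest adjusted p = 0.566 in limma). Itgb8, a subunit of the integrin that frees TGF-beta from its latent complex, was at 7.40, 6.38 and 6.56 FPKM in control against 4.42, 6.40 and 5.98 FPKM after depletion, giving a log2 fold change of -0.25, and Ltbp4, a latent TGF-beta binding protein, stood at -0.24. Thbs1, an activator, and Itgb1 were highest at 0.20 and 0.17. In all 4 genes the groups overlapped. Of 12 receptors and coreceptors 7 were higher on average, with a median of 0.0078, from Acvr2b at -0.22 and Acvr2a at -0.074 to Acvr1b at 0.092 and Acvrl1 at 0.13, and none of the 12 had groups apart. Of 19 Smads and Smad regulators 11 were higher on average, with a median of 0.039, from Pmepa1 at -0.10 and Smurf2 at -0.099 to Skil at 0.20 and Tgif1 at 0.25. In the last 2 lists 0 genes passed the test either (lowest adjusted p = 0.748 and 0.602 in limma). In all 3 lists 0 genes were at an unadjusted p-value under 0.05, beside 10.5% of all genes. The groups were apart in 1 higher and 1 lower gene of the first list and 1 higher gene of the last. Of all genes, 8.21% were apart as higher and 9.38% as lower, and 6907 of 14385 were higher on average. With 3 mice a group, such counts do not show that the pathway was unchanged.

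Target genes were read in 2 lists. Of 18 tested general targets of TGF-beta, 11 were higher on average, with a median log2 fold change of 0.097, or -0.071 without A4, and 0 passed the test (lowest adjusted p = 0.570 in limma) or were at an unadjusted p-value under 0.05. Jun and Cdkn1a, an immediate early factor and a cell cycle inhibitor that stress also induces, were at 54.9 and 44.6 FPKM in A4, and in the other 5 mice between 12.8 and 15.3 and between 10.9 and 14.2 FPKM. Col1a2 and Cyr61 were lowest, at -0.25 and -0.18. The 17 microglia genes that depend on TGF-beta had a median of 0.0049, with 9 higher on average and 0 past the test (lowest adjusted p = 0.337 in limma, with 5 genes at an unadjusted p-value under 0.05 beside 10.5% of all genes). Fcrls, an Fc receptor-like gene of resting microglia, was at 11.9, 8.19 and 13.3 FPKM in control against 3.83, 5.05 and 7.91 FPKM in depleted mice, and Crybb1, a crystallin gene expressed in microglia, was at 3.48, 2.34 and 2.73 FPKM and at 0.66, 1.6 and 1.01 FPKM. Both stood at a log2 fold change of -0.90, with every depleted mouse below every control mouse. Pros1, a ligand of the TAM receptors, was apart the other way, at 0.37. In all, 3 genes of the list were higher and 3 lower in every depleted mouse, beside 8.21% and 9.38% of all genes, and the summed FPKM overlapped, at 429.4 to 503.4 in control and 478.6 to 569.8 in depleted mice.

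**Figure D4:**
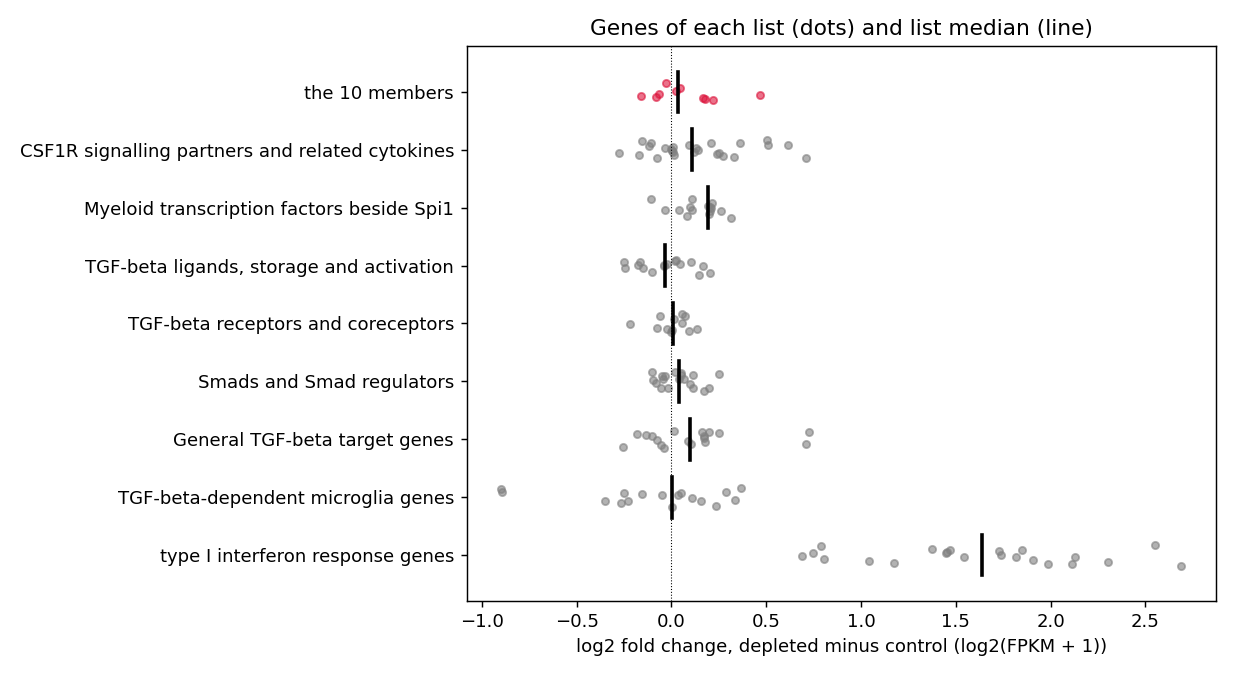
Log2 fold change (x axis, depleted minus control on the log2(FPKM + 1) scale) of every tested gene of each list, as dots, with the list median as a black line. The 10 members (red) and the 7 lists around them have medians from -0.032 to 0.19, and the 22 type I interferon response genes have a median of 1.64.

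The type I interferon response is given for scale. All 22 tested genes were higher on average, with a median log2 fold change of 1.64, or 0.96 without A4. They ran from Ifit2 at 0.69 and Stat2 at 0.75 to Ccl5 at 2.55 and Cxcl10 at 2.69. Of the 22, 0 passed the test over all genes (lowest adjusted p = 0.283 in limma), which 4 genes passed in all. The paper tested raw counts with DESeq at the same threshold of 0.1 and called more genes. It places many of its upregulated genes in the type I interferon network and names Fcrls and P2ry12 as downregulated. The lack of calls here thus does not show that these genes were unchanged. At an unadjusted p-value under 0.05 stood 18 of them, beside 10.5% of all genes. Over the 118 tested genes of the other 7 lists without the members, 73 were higher on average, beside 6907 of all 14385 genes. Their median was 0.045. In limma 0 of the 118 passed the test and 11 were at an unadjusted p-value under 0.05, beside 10.5% of all genes.

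Other cell types also differed between the libraries, and their part in the values above was not tested. The 10 oligodendrocyte markers summed to 3042 to 3311 FPKM in control and 2659 to 2744 FPKM in depleted mice, led by Mbp at -0.20 on the log2 scale, and the 4 markers of their precursors to 26.9 to 29.6 and 22.9 to 23.2 FPKM. The 8 choroid plexus markers summed to 170.5 to 327.1 FPKM in control and 47.3 to 72.6 FPKM in depleted mice, led by Ttr at -1.91, and the 8 fibroblast and meningeal markers, led by Igf2, to 59.2 to 66.2 and 41.7 to 57.2 FPKM. The 7 mural markers summed to 43.9 to 53.1 and 35.3 to 42.0 FPKM. In these 5 lists every depleted mouse was below every control mouse in the sum. The mural and the fibroblast sums rested on 1 gene each, since they overlapped without Vtn, at 15.1 to 18.7 and 13 to 16.5 FPKM, and without Igf2, at 35.9 to 42.7 and 29.8 to 39.3 FPKM. The 12 markers of monocytes and border macrophages, which also use CSF1R, summed to 16.4 to 17.5 FPKM in control and 15.1 to 16.9 FPKM in depleted mice and overlapped. The 10 astrocyte markers also overlapped in their sum, at 1218 to 1364 and 1226 to 1347 FPKM. Of the 10, 2 were higher and 2 lower in every depleted mouse, beside 8.21% and 9.38% of all genes. Gfap, the filament protein of reactive astrocytes, was at 88.3, 64.5 and 84.2 FPKM in control against 300.3, 108.5 and 120.1 FPKM in depleted mice, and Aldoc, the most abundant of the markers, was lower in every depleted mouse, at a log2 fold change of -0.19. In none of the marker lists was a gene at 0 in all 6 mice, and 0 genes passed the test in limma, while beside 10.5% of all genes the unadjusted p-value was under 0.05 for 5 of 10 oligodendrocyte, 2 of 4 precursor, 5 of 8 choroid plexus, 2 of 9 tested monocyte and macrophage, 2 of 10 astrocyte, 1 of 7 mural and 1 of 8 fibroblast markers. Without A5, 1 fibroblast marker passed the test as lower.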

How the data were processed

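Cortical poly(A) RNA of 6 mice was sequenced with 1 library per mouse. The authors aligned paired-end reads with TopHat, quantified known transcripts with RSEM and deposited FPKM values scaled with TMM factors and rounded to 2 decimals, and the submitters' processing notes add DESeq and mm9. Versions of these tools and the annotation are not given in the sources used here. The table had 23366 genes, 4451 of them at 0 in every mouse.

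Genes averaging 0.5 FPKM or more over the mice, 14385 in all, were fitted with limma 3.58.1 in R 4.3.3 (lmFit, eBayes with trend) on log2(FPKM + 1), a scale that understates changes of low genes, with Benjamini-Hochberg adjustment over all genes and a threshold of 0.1. All 10 members passed the filter. For single values the group means were set against all exact relabellings of the mice, two-sided. Groups came from the sample titles, which state no litter or batch. The fit was tested on simulated data. Fragments were estimated from the steps of low FPKM values of genes with a single GENCODE M21 transcript of 400 to 3000 bases, and windows of 75 bases shared with other transcripts were counted. Members, lists, tests and alternatives were chosen with earlier results of these data known; settings relative to Cx3cr1, to the median marker and without C1q genes were added later. Named genes were the members, the 2 highest and 2 lowest of each list, the 5 genes most like Csf1r, Aif1, Cx3cr1 and, where named, the most abundant marker of a cell type. Itgam, Siglech, Gfap, Trem2, P2ry12, Ctss, the C1q genes, Csf2, Csf3, Csf2rb, Runx1, Nfe2, Hmgxb3 and the sex-linked genes were named after their values were seen. The planned comparison of protein sequences was not made, and 1 gene that this rule names is not reported here. Python 3.11.15, numpy 2.4.6, pandas 2.3.3 and matplotlib 3.10.9 served the other steps.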

Additional observations from a re-analysis of the deposited data

How the results depend on the processing

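No gene of the 10 passed the threshold under any of 16 alternatives, and adjusted p-values in limma ran from 0.242 for Spi1 without A5 to 0.999 for Csf1r without A1. Csf1, Il34, Spi1 and Tgfbr2 kept their direction under every alternative. With 1 mouse left out, log2 fold changes ran from -0.17 to 0.039 for Csf1r, 0.074 to 0.25 for Csf1, -0.22 to -0.064 for Il34, 0.31 to 0.65 for Spi1, -0.063 to 0.37 for Tgfb1, -0.095 to 0.18 for Tgfb2, -0.098 to 0.032 for Tgfbr1, 0.17 to 0.29 for Tgfbr2, -0.14 to 0.052 for Smad2 and -0.038 to 0.15 for Smad3. Array weights, by which each mouse gets its own weight, turned Tgfb2 to -0.045 and moved Csf1r to -0.18, Tgfb1 to 0.026, Tgfbr1 to -0.072, Smad2 to -0.11 and Smad3 to 0.076, and a pseudocount of 0.1 moved Spi1 to 0.80. Tgfb2 relative to Tgfb1 ran from -0.28 to 0.054 and Smad3 relative to Smad2 from -0.090 to 0.29 with 1 mouse left out. Over all genes, 4 higher and 0 lower genes became 2 and 0 with eBayes without trend and 13 and 7 with array weights, and 2 to 22 higher and 0 to 7 lower genes with 1 mouse left out, the most without A5. The cause was not tested. Csf1r relative to the microglia markers stayed lower under all alternatives, from -0.38 to -0.11. The latter was against Cx3cr1 alone (exact two-sided permutation test, p = 0.3). Against single markers it was lower on average for 19 of 21, and higher for Fcrls and P2ry12, by 0.82 and 0.27.

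No paired analysis was possible because the labels give the groups no shared replicate numbers. With 3 mice a group the intervals of the less abundant genes were wide, and Spi1 and Tgfb1 rested on few fragments.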
